A study of Mus musculus with 6 samples.

Results

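The small nucleolar and Cajal body RNAs described here are the genes annotated as snoRNA or scaRNA that had at least 10 counts in each of 6 mouse tumours. That rule kept 40 genes of 1558 annotated small RNA genes (33 snoRNA and 7 scaRNA), in a table of 55450 genes. The study injected tumours intralesionally with PV-10, a formulation of rose bengal, or with phosphate-buffered saline (PBS), and its title concerns immunogenic cell death, endoplasmic reticulum stress and apoptosis. Tumours grew from MTE-RAS cells, mouse tracheal epithelial cancer cells carrying a transforming oncogenic RAS mutation, placed under the skin of the right flank of C57BL/6 mice. Both groups share the cell line, the mutation and the host strain, and there were 3 tumours with PBS and 3 with PV-10. The dose of PV-10, the time of collection and the age and sex of the mice are not given in the labels. Nor do the labels say whether each tumour had its own mouse. The tests set the difference between groups against the spread within groups and treat the 6 tumours as independent. Libraries were strand-specific and made from 100 ng of total RNA per tumour.

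Small nucleolar RNAs guide chemical changes of ribosomal RNA. Box C/D RNAs (Snord genes) pair with their target and direct 2′-O-methylation by the enzyme fibrillarin, and box H/ACA RNAs (Snora genes) direct the conversion of uridine to pseudouridine by dyskerin. Small Cajal body RNAs (Scarna genes) carry either or both kinds of box and guide the same changes in spliceosomal RNAs. In mammals most of them lie in introns of a host gene and are released when the host transcript is spliced and the intron is trimmed from both ends.

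By name the 40 genes comprised 7 Snord genes of 98 annotated, 3 Snora genes of 42, 3 Scarna genes of 9 and 27 genes with other names of 1409. The last group holds 25 genes known only by a Gm number, Rnu3a (the U3 RNA, needed for the first cleavages of the ribosomal precursor) and Mir1949. Of all 1558 genes, 1358 had no count in any tumour, 46 had a count in every tumour and 112 had a mean of at least 10 counts. A minimum in every tumour removes genes that fell to few counts in 1 group, so the 72 genes with a mean of at least 10 that missed it are described with the members below. The 2 members nearest the limit were Gm25395, with a lowest count of 13, and Gm26330, with 14. The nearest genes outside it were Snord99, with a lowest count of 8, and Gm22767, with 7. Transcripts of the members were 70 to 414 nt long, with a median of 140.5 nt against 128 nt for all small RNA genes. A count was found for 18.3% of the small RNA genes of 130 nt or more and for 8.6% of those of 70 to 99 nt.

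The sequences of the members used below were searched for letters of both kinds of box, and a match is a description of the letters only. They are the Gencode release M21 transcripts, 5′ to 3′, with mm10 positions. A search of the given strand of each transcript for TGATGA (the C box core) within the first 25 bases together with CTGA (the D box) within the last 12 found both in 13 members. The letters ACA at exactly 3 bases before the 3′ end were present in 18 members, no member had both signatures and 9 had neither. Over all 1558 small RNA genes, 19.4% carried the first signature and 19.3% the second. The 4 sequences that follow are shown because they are near-copies of each other in 4 different host genes and include 2 of the 3 members with the most counts. Gm22988 lies at chr11:69669635-69669778 (minus strand) within Eif4a1, Gm24727 at chr8:33691801-33691944 (plus) within Gsr, Gm25117 at chr10:111481493-111481636 (plus) within Nap1l1 and Gm25291 at chr11:51737779-51737922 (minus) within Sec24a. Capitals mark the ACA.
Gm22988: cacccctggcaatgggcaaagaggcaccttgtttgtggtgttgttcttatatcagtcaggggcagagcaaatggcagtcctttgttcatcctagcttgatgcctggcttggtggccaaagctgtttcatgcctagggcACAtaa
Gm24727: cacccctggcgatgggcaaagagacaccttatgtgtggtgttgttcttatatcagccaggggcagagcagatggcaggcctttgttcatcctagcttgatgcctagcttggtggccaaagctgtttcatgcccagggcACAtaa
Gm25117: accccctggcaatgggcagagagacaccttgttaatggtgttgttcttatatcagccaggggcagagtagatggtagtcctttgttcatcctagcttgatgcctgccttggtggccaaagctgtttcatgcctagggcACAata
Gm25291: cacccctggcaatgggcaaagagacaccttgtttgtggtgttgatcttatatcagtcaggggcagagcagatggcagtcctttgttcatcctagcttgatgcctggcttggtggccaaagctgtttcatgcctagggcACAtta
Each is 144 nt long, and pairs of them share 88.9% to 97.2% of aligned positions. RSEM, the program that made the counts, shares reads among similar sequences, so how the reads divide among these 4 genes is uncertain.

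The member with the most counts, Gm26397 (chr8:126944847-126944980, minus strand, within Tomm20), and the 3 Snora genes also end in the ACA signature. Snora7a lies at chr6:115807975-115808114 (minus) within the ribosomal protein gene Rpl32. Snora73a (chr4:132352775-132352979, minus) and Snora73b (chr4:132352322-132352526, minus) are the U17 RNAs, which act in cleavage of the ribosomal precursor. They share 96.6% of 205 positions and lie within Rcc1 and within the noncoding gene Snhg3, which spans the same stretch. They also overlap the antisense noncoding gene Gm17300, and whether the counting used the strand is not given in the sources used here.
Gm26397: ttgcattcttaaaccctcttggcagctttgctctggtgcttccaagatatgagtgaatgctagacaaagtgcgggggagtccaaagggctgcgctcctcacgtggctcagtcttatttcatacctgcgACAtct
Snora7a: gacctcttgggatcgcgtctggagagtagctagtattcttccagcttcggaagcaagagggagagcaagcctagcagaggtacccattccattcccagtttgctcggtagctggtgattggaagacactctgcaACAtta
Snora73a: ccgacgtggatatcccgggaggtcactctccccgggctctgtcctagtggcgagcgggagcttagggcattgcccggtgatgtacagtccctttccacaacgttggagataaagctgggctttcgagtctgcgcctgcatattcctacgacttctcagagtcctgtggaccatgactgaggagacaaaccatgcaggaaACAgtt
Snora73b: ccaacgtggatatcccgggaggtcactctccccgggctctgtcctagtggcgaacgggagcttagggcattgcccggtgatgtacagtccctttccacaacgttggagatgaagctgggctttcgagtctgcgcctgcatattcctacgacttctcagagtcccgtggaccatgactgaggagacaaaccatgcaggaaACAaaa
Among the Snord genes, 6 of 7 carry both parts of the box C/D signature. The exception is Snord22 (U22, which acts in processing of the small-subunit ribosomal RNA; chr19:8725866-8725991, plus, within Snhg1), which has CTGA near its end and no TGATGA in the window. Snord21 (chr5:107904555-107904648, plus, within Rpl5), Snord32a (chr7:45127382-45127464, minus, within Rpl13a) and Snord104 (chr11:106500993-106501062, plus, in no host) are shown because all 3 are shorter than the 100-base reads. Capitals mark TGATGA and CTGA.
Snord22: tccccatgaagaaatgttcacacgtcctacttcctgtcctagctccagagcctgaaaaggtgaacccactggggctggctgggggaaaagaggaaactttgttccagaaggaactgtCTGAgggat
Snord21: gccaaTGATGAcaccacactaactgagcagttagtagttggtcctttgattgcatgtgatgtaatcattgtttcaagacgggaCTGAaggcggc
Snord32a: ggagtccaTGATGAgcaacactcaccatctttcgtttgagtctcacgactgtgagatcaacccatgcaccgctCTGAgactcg
Snord104: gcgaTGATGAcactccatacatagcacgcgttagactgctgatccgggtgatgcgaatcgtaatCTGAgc
Scarna13 (U93; chr12:105031075-105031349, minus, within the noncoding gene Snhg10) is shown as a Cajal body RNA that ends in the ACA signature.
Scarna13: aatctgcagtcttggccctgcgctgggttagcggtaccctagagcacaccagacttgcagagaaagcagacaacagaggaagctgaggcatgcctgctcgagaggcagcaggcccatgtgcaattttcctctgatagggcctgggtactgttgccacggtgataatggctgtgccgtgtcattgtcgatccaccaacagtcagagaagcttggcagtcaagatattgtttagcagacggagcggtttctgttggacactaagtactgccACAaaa

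The libraries held 36730318 to 98717951 counts per tumour, the 2 lowest totals being PV-10 tumours 1 and 2. In a principal component analysis of log2 CPM (counts per 1000000 library counts), PC1 held 57.1% of the variance and placed PV-10 tumours 1 and 2 at 182.4 and 224.4. PV-10 tumour 3, at -46, lay nearer the PBS tumours (-153.4 to -92.8). Of the epithelial markers, Epcam was near 0 in both groups (0.233 ± 0.202 CPM in PBS and 0.801 ± 0.588 in PV-10, SD, n = 3 each), while the keratin gene Krt8 stood at 324 ± 79.4 and 199 ± 62.2 CPM. Krt18 had 311 ± 71.8 and 323 ± 27.8 CPM, Krt5 and Krt14 had means of 0.259 and 1.15 CPM with PBS and 0.862 and 2.14 with PV-10, and Cdh1 had 9.27 ± 0.881 and 4.25 ± 1.29 CPM without overlap (edgeR adjusted p = 0.0627). The 6 epithelial markers summed to 483.9 to 781.5 CPM with PBS and 464.6 to 632.1 CPM with PV-10. None of 23 tested markers of epithelial, white blood, endothelial, fibroblast, muscle and fat cells passed the test, and 8 of them had an unadjusted p under 0.05. The 3 endothelial markers, all with negative changes, summed to 170.2 to 341.6 CPM with PBS and to 106.4, 82.64 and 290.4 CPM in PV-10 tumours 1 to 3. The 3 muscle markers summed to 1.535 to 10.45 CPM with PBS and to 36.01, 177.4 and 3.377 CPM with PV-10, and among them Myh4, a myosin heavy chain gene, had 0 to 0.415 CPM with PBS and 19.0, 110 and 0 CPM with PV-10. The part of these markers in the members' changes was not tested. In bulk tumours fewer cells of a type and less RNA per cell cannot be told apart.

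Small nucleolar and Cajal body RNAs took a larger share of the counts in every PV-10 tumour than in any PBS tumour. Their summed counts made up 0.0391%, 0.0403% and 0.0455% of the library in PBS tumours 1 to 3 and 0.138%, 0.158% and 0.0968% in PV-10 tumours 1 to 3. All 40 had a positive log2 change between PV-10 and PBS, against 58.5% of the 22056 genes tested. Their median log2 change was 1.47 (range 0.40 to 2.76), against 0.30 over all genes tested. Without the filter on low counts, which adds genes with few counts, the median over all genes was 1.63 and that of the members 1.36. In edgeR's quasi-likelihood test on TMM-scaled counts, with Benjamini-Hochberg adjustment over all genes tested, 15 of 40 passed an adjusted p of 0.05, all higher in PV-10. Over all genes, 5.09% passed, 3.17% higher and 1.92% lower. With DESeq2, 22 of 40 passed, all higher, against 19.3% of all genes. The PV-10 tumours lay above every PBS tumour for 29 members and below for 0. Over all genes, 22.0% lay above in this way and 16.8% below. The rule asked for counts in both groups and not for a difference, but it was set with results of these data known.

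The calls rested on all but 1 of the libraries. Without PBS tumour 1, 2 or 3, or without PV-10 tumour 1 or 2, the count of members passing was 0, with lowest adjusted p-values in edgeR of 0.0831, 0.08, 0.0735, 0.0644 and 0.205. In those 5 fits 1, 2, 1, 2 and 5 genes of the whole table passed, 22 to 28 members had an unadjusted p under 0.05, and all 40 log2 changes stayed positive. Without PV-10 tumour 3, 20 members passed (6884 of 27510 genes tested passed higher) and 39 of 40 changes were positive.

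**Figure D1:**
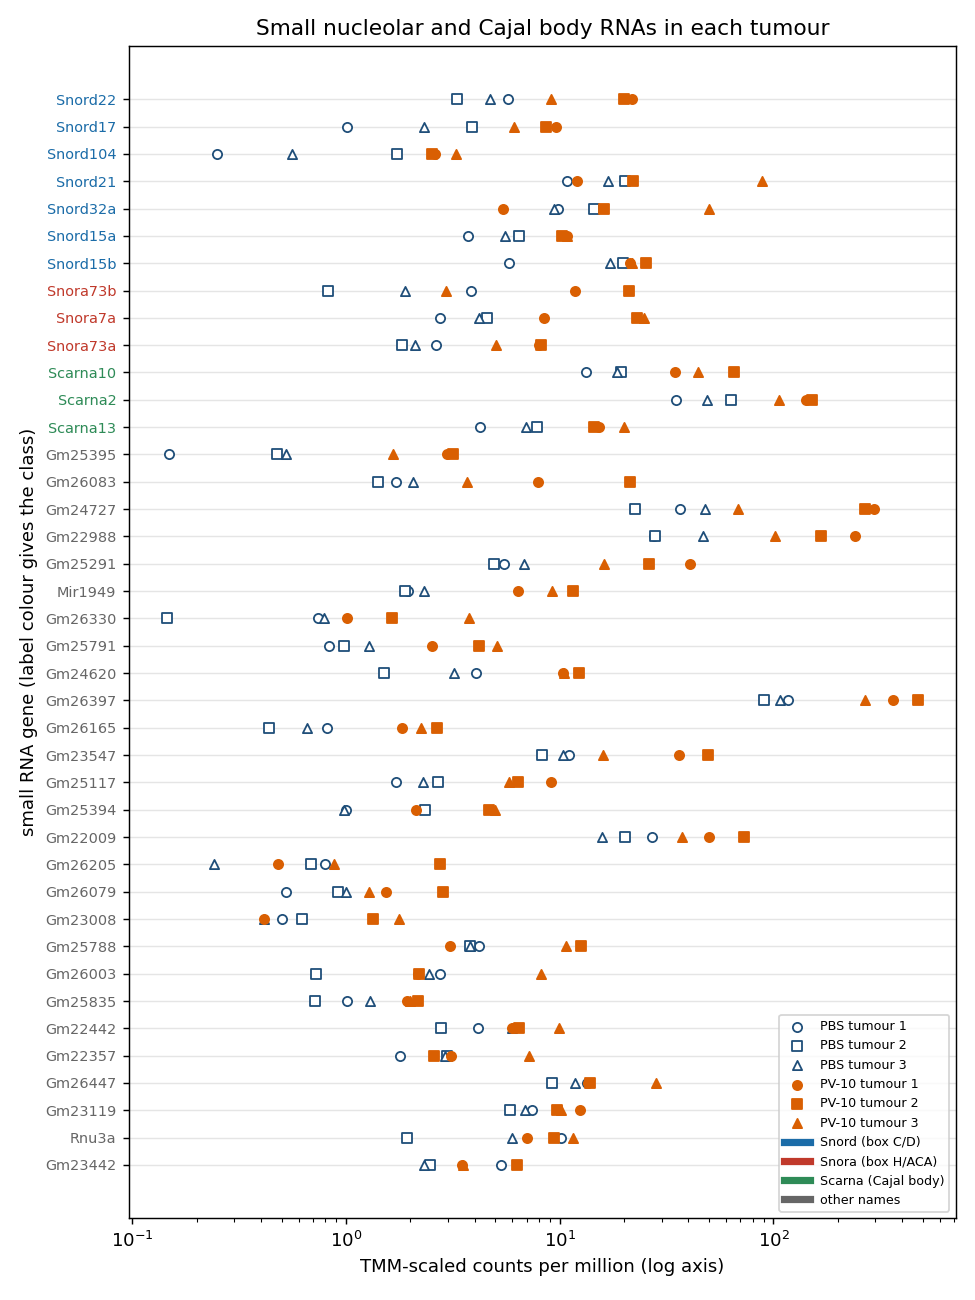
TMM-scaled CPM (log axis) of each of the 40 small RNA genes in each tumour, ordered within class by log2 change. Open symbols are the 3 PBS tumours and filled symbols the 3 PV-10 tumours, and for 29 genes all filled symbols lie right of all open ones; CPM is not scaled to transcript length, so it compares tumours and not genes.

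The 4 near-copies all rose. Gm24727 had 36.4, 22.4 and 48.0 CPM in PBS tumours 1 to 3 and 296, 269 and 67.9 CPM in PV-10 tumours 1 to 3. Gm22988 had 27.6, 27.9 and 47.0 CPM with PBS, and 242, 166 and 101 CPM with PV-10. For both, PV-10 tumours 1 and 2 were far above the PBS tumours and PV-10 tumour 3 was the lowest of its group, without overlap. The fold of PV-10 over PBS means was 5.93 for Gm24727 (log2 change 2.57 ± 0.54 SE, edgeR adjusted p = 0.0443) and 4.96 for Gm22988 (2.31 ± 0.39, adjusted p = 0.0443). Gm25291 (2.27 ± 0.37) and Gm25117 (1.66 ± 0.38), with fewer counts, also passed. Gm26397, the member with the most counts in every tumour, had 117, 90.5 and 107 CPM with PBS and 362, 474 and 267 CPM with PV-10. Its groups did not overlap, and its log2 change was 1.81 ± 0.30 (edgeR adjusted p = 0.0443). Together Gm26397, Gm24727 and Gm22988 made up 36.5% to 46.7% of the members' counts in the PBS tumours and 63.0%, 57.3% and 41.9% in PV-10 tumours 1 to 3.

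All 3 Snora genes had larger changes than the median member, and 2 of them passed. Snora7a, a guide for ribosomal RNA, had 2.75, 4.58 and 4.17 CPM with PBS and 8.45, 23.0 and 24.8 CPM with PV-10. PV-10 tumour 1 was the lowest of its group but still above the PBS tumours (log2 change 2.29 ± 0.43, edgeR adjusted p = 0.0443). Snora73a had 2.64, 1.82 and 2.11 CPM with PBS and 8.04, 8.16 and 5.04 CPM with PV-10, again without overlap (1.69 ± 0.38, adjusted p = 0.0451). Its near-copy Snora73b had a larger estimate but scattered more. It had 3.84, 0.827 and 1.89 CPM with PBS and 11.8, 21.0 and 2.93 CPM with PV-10, so that PV-10 tumour 3 lay inside the PBS range (2.44 ± 0.73, edgeR adjusted p = 0.0674).

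The 3 Scarna genes all rose. Scarna2, a guide for the U2 spliceosomal RNA that is transcribed from its own promoter, had 34.8, 63.4 and 49.1 CPM with PBS and 142, 151 and 107 CPM with PV-10. Scarna10 (U85) is known as a guide for the U5 spliceosomal RNA with both kinds of box, of which the search found the box C/D letters alone. It had 13.3, 19.3 and 18.5 CPM with PBS and 34.7, 65.6 and 44.4 CPM with PV-10. Scarna13 had 4.24, 7.85 and 6.94 CPM with PBS and 15.3, 14.5 and 20.1 CPM with PV-10. In none of the 3 did the groups overlap. Their log2 changes were 1.44 ± 0.31, 1.5 ± 0.31 and 1.39 ± 0.32, with edgeR adjusted p-values of 0.0443, 0.0443 and 0.0453. Of the 7 members annotated as scaRNA, whatever their name, 3 passed: Scarna2, Scarna13 and Gm26083.

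Only Snord22 of the 7 Snord genes passed the test. It had 5.72, 3.30 and 4.70 CPM with PBS and 21.7, 19.9 and 9.13 CPM with PV-10, with no overlap (log2 change 1.89 ± 0.39, edgeR adjusted p = 0.0443). Snord17 had 1.01, 3.90 and 2.33 CPM with PBS and 9.55, 8.60 and 6.09 CPM with PV-10, also without overlap (1.74 ± 0.49, adjusted p = 0.0612). Snord15a and Snord15b, both guides for ribosomal RNA within Rps3, had log2 changes of 1.02 ± 0.30 and 0.68 ± 0.41. The PV-10 tumours were tight for both, at 10.2 to 10.8 CPM and 21.4 to 25.2 CPM, and lay above PBS ranges of 3.71 to 6.42 CPM and 5.76 to 19.7 CPM. Snord104 had 0.250, 1.74 and 0.560 CPM with PBS and 2.62, 2.52 and 3.26 CPM with PV-10. Its groups did not overlap either, yet its counts, 22 to 286 per tumour, gave an SE of 0.79 around a log2 change of 1.72.

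Snord21 and Snord32a, guides for ribosomal RNA, followed another pattern. Snord21 had 10.8, 20.1 and 16.9 CPM with PBS and 12.1, 21.9 and 88.2 CPM with PV-10. Snord32a had 9.81, 14.5 and 9.37 CPM with PBS and 5.44, 16.1 and 50.1 CPM with PV-10. Only PV-10 tumour 3 stood high for these genes, and PV-10 tumour 1 lay within the PBS range for Snord21 and below it for Snord32a. Their log2 changes of 1.35 ± 0.64 and 1.09 ± 0.64 did not pass. Without PV-10 tumour 3 that of Snord21 was 0.09 and that of Snord32a -0.07. The pattern was not theirs alone. In PV-10 tumours 1 to 3, Gm22357 had 3.10, 2.57 and 7.20 CPM and Gm26003 had 2.17, 2.19 and 8.18 CPM. Without PV-10 tumour 3 each of these had a log2 change of 0.15. Of the 5 members shorter than 100 nt 0 passed, whereas 9 of the 24 of 100 to 150 nt and 6 of the 11 longer ones did. Unadjusted, the number under a p of 0.05 was also 0 among the 5.

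**Figure D2:**
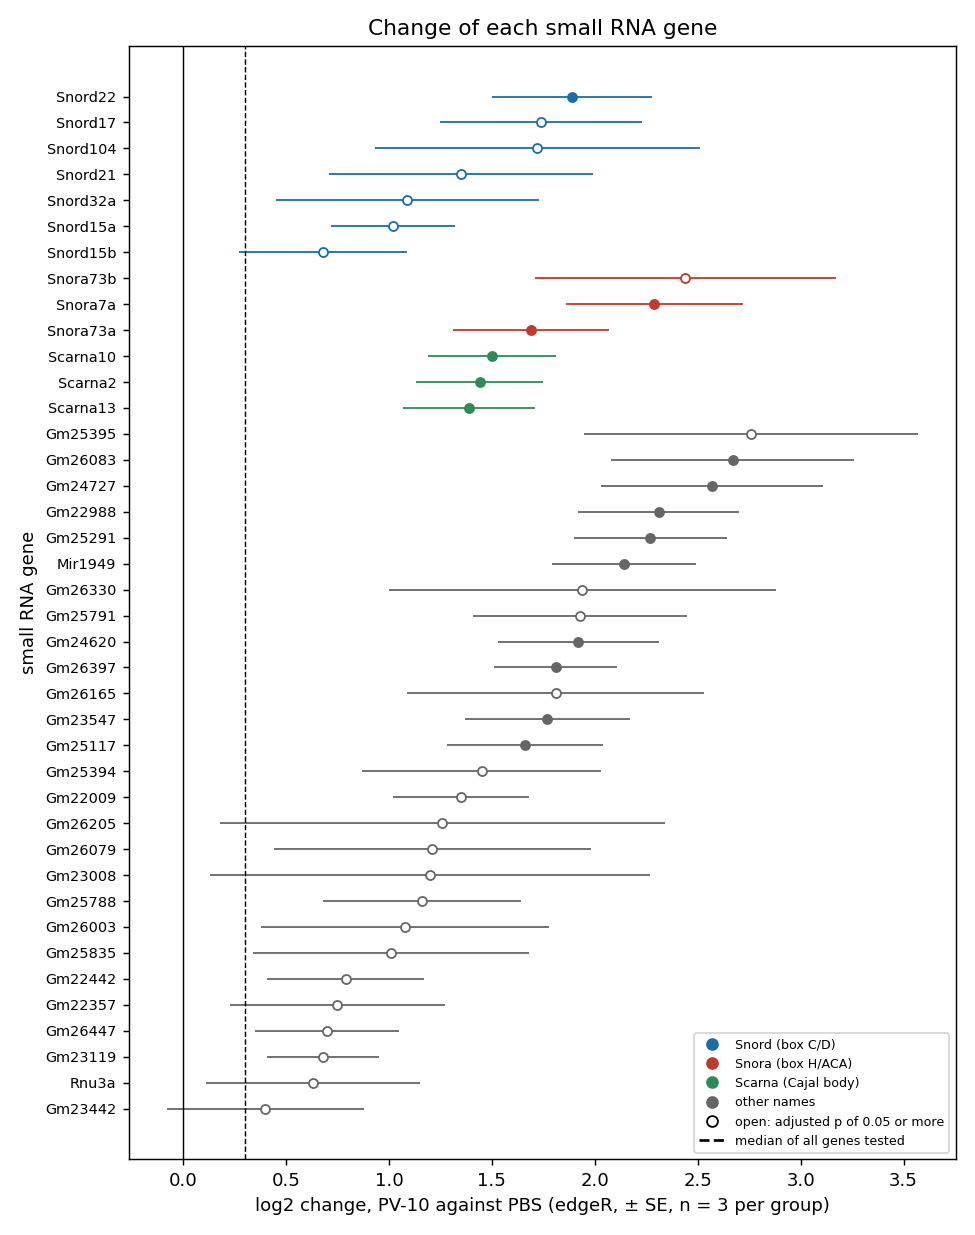
Log2 change of each small RNA gene between PV-10 and PBS (edgeR, point and SE bar, n = 3 tumours per group), with filled points for the 15 that passed. All 40 points lie right of 0, and all 40 lie right of the dashed line at the median of all genes tested, 0.30.

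By name class the median log2 change was 1.35 for Snord (range 0.68 to 1.89), 2.29 for Snora (1.69 to 2.44), 1.44 for Scarna (1.39 to 1.5) and 1.45 for the other names (0.40 to 2.76). Classes of 3 genes are too small for more than this description, and no difference between classes was tested. Sorted by sequence instead of name, 2 of the 13 members with the box C/D signature passed (median 1.35). Of the 18 with the ACA signature 10 passed (median 1.81), and of the 9 with neither 3 did (median 1.20). The 10 with the ACA include the 4 near-copies, among which the division of reads is uncertain.

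Among the 27 genes with other names, 9 passed. Gm26083, a scaRNA within Snhg20, had the largest change of those, from 1.71, 1.41 and 2.05 CPM to 7.95, 21.2 and 3.70 CPM (2.67 ± 0.59, edgeR adjusted p = 0.0446). Mir1949, named for a microRNA but typed as snoRNA in the annotation, had 1.94, 1.89 and 2.31 CPM with PBS and 6.39, 11.6 and 9.23 CPM with PV-10 (2.14 ± 0.35, adjusted p = 0.0443). Neither had overlapping groups. Gm23547, which lies within Phb2 and matched the box C/D letters, had 8.23 to 11.1 CPM with PBS and 15.9 to 49.2 CPM with PV-10 (1.77 ± 0.40, adjusted p = 0.0451). Gm22009, a scaRNA within Kpna4 that matched the box C/D letters, lay just outside the threshold at an adjusted p of 0.0501, with 15.8 to 27.1 CPM against 37.4 to 73.0 CPM. The largest estimate of all, 2.76 ± 0.81 for Gm25395, came from counts of 13 to 54 per PBS tumour and had an adjusted p of 0.0657. At the other end, Gm23442 had 0.40 ± 0.48 and Rnu3a 0.63 ± 0.52, with overlapping groups for both. Rnu3a had 10.2, 1.93 and 5.97 CPM with PBS and 7.01, 9.37 and 11.6 CPM with PV-10.

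The 3 PV-10 tumours did not contribute alike. CPM exceeded every PBS tumour for 31 members in PV-10 tumour 1, 37 in tumour 2 and 38 in tumour 3. The highest value of all 6 tumours was in PV-10 tumour 1 for 7 members, in tumour 2 for 18 and in tumour 3 for 15, and never in a PBS tumour. PV-10 tumour 3 had the lowest summed CPM of its group (1041, against 1429 and 1586 in the others) and the largest number of members above PBS. The PBS sums were 388.7, 386.2 and 433.6 CPM.

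Of the 72 small RNA genes with a mean of at least 10 counts that missed the minimum, 62 were tested and 0 passed in edgeR, with an unadjusted p under 0.05 for 3. Of the 62 log2 changes 54 were positive and 8 negative, with a median of 1.47. Adding them to the members left 15 passing of 102 tested, 14.7% against 3.17% of all genes. Of these 72 genes, 49, 22 and 12 had no count in PBS tumours 1 to 3 and 16, 25 and 5 had none in PV-10 tumours 1 to 3, at the depths given above.

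Host genes were the same-strand genes that contain a member whole. For 36 members there was one, 30 times a protein-coding gene and 6 times a noncoding one, 32 distinct genes in all. Of the hosts, 11 were higher and 2 lower in PV-10, against 3.17% and 1.92% of all genes, and their median log2 change was 0.36 against 0.30. A member's change exceeded that of its host for 26 of 36 members, by a median of 1.25 over all 36. These changes are on counts not scaled for length, and every host has a longer transcript than any member. With each library's length trend removed, as described below, the medians were 0.47 over all 40 members and -0.28 over the hosts. The part of length in the gap between members and hosts was not tested. Member and host changes had a Pearson r of -0.01 over the 36 members, a description in which members share hosts and libraries. Of the 14 members that rose and have a host, 4 had a host that rose and 1 a host that fell, 4 had a host with a positive change that did not pass, and 5 had negative changes that did not pass. Where a member lies in more than 1 gene, these values use the one with more counts. With Snhg3 in place of Rcc1 as the host of Snora73a and Snora73b, 25 members exceeded their host, 5 of the 14 had a host that rose and the host median was 0.5.

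Snord22 and its host moved the same way. Snhg1, a noncoding gene whose introns carry several box C/D RNAs, had 44.1, 33.2 and 42.4 CPM with PBS and 273, 329 and 82.6 CPM with PV-10 (log2 change 2.51, edgeR adjusted p = 0.0443). Snhg10, the host of Scarna13, also rose (3.2, adjusted p = 0.0488), from 0.227 to 0.432 CPM to 1.22 to 4.23 CPM. So did Tomm20, a mitochondrial import receptor that hosts Gm26397 (1.85, against 1.81 for Gm26397), and Rpl32, the host of Snora7a (1.98 against 2.29). With the length trend removed, Tomm20 had 1.57 and Gm26397 0.62, and Rpl32 had 1.08 and Snora7a 1.12. Snord22 and Snora7a lie whole within exons of annotated host isoforms, so their counts can hold fragments of the host transcript. The remaining examples went apart. Gm24620 had 4.06, 1.51 and 3.21 CPM with PBS and 10.3, 12.4 and 10.5 CPM with PV-10 and rose by 1.92 ± 0.39 (edgeR adjusted p = 0.0443). It shares 97.7% of aligned positions with Gm25788 within Pabpc4 (1.16 ± 0.48, adjusted p = 0.139, groups overlapping), so how their reads divide is uncertain. Its host Kif13a, a kinesin motor gene, had 42.6, 35.4 and 37.3 CPM with PBS and 9.05, 11.5 and 21.2 CPM with PV-10 and fell (-1.46, adjusted p = 0.0469). Scarna10 rose while its host Ncapd2, a condensin subunit gene, had a log2 change of -1.11 (adjusted p = 0.0645). Likewise the hosts of Gm24727 and Gm25291, Gsr and Sec24a, had changes of -1.08 and -1.06, which did not pass.

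In 4 hosts lay 2 members each, and differences between such pairs were not tested. Within Eif4a1 (log2 change -0.07), Gm22988 rose by 2.31 and Gm25835, which matched the box C/D letters, had 1.01 ± 0.67. Within Snx5 (0.23), Snord17 had 1.74 and Gm26165 1.81. For Snora73a and Snora73b the host with more counts, Rcc1, had -0.78 (edgeR adjusted p = 0.101), whereas Snhg3, which spans the same stretch, rose by 1.87 (adjusted p = 0.0443). Rps3, a ribosomal protein gene, rose (1.53) and its members Snord15a and Snord15b had 1.02 and 0.68. Of the 7 members within ribosomal protein genes 1 passed, with a median of 1.26, although all those hosts rose. Of the 29 within other hosts 13 passed, with a median of 1.69.

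**Figure D3:**
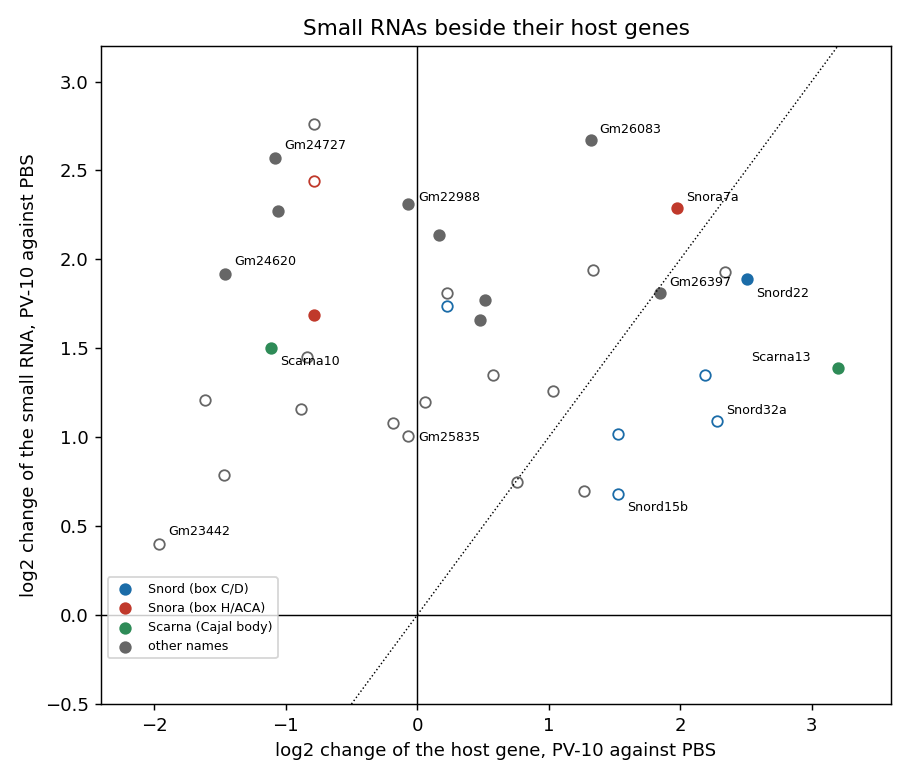
Log2 change of each of 36 small RNAs (vertical axis) against that of its host gene (horizontal axis), PV-10 against PBS, filled where the small RNA passed the test. The dotted line marks equal change: 26 points lie above it and 10 below. All 36 small RNAs lie above 0, so the 15 whose hosts (13 genes) lie left of 0 do so as well.

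Counts of a small RNA can hold fragments of its host transcript. An exon of an annotated host isoform, in most cases one typed as retained intron, overlaps 18 members, 14 of them over their whole length. Of these 18, 8 passed with a median of 1.60, and of the 18 that are intronic in every host isoform 6 passed with a median of 1.56. Gm24727, Gm25291, Gm25117, Gm26397, Gm24620 and Scarna13 are those 6. How many reads came from the mature small RNA and how many from unspliced host RNA cannot be told from gene counts.

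Short genes other than the members also had positive median log2 changes. Among tested genes that are no members but have a longest transcript within the members' length range, 18 of 340 rose (5.29%) and 0 fell, with a median log2 change of 1.24. For other small RNA types (snRNA, misc_RNA, rRNA, miRNA and ribozyme) 10 of 63 rose (15.9%), with a median of 1.34. Protein-coding genes ran from a median of 1.22 under 500 nt through 0.66 and 0.04 to -0.50 at 5000 nt or more. Of the 66 under 500 nt, 11 rose (16.7%) and 0 fell. None of these groups was held to the members' minimum of 10 counts in every tumour, so their shares are not directly comparable with the members'. Hosts with a negative change also had longer transcripts than those with a positive one, with medians of 4426 and 2512 nt. The part of length in the members' changes was examined by the scales that follow, and the difference between members and other short genes was not tested.

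**Figure D4:**
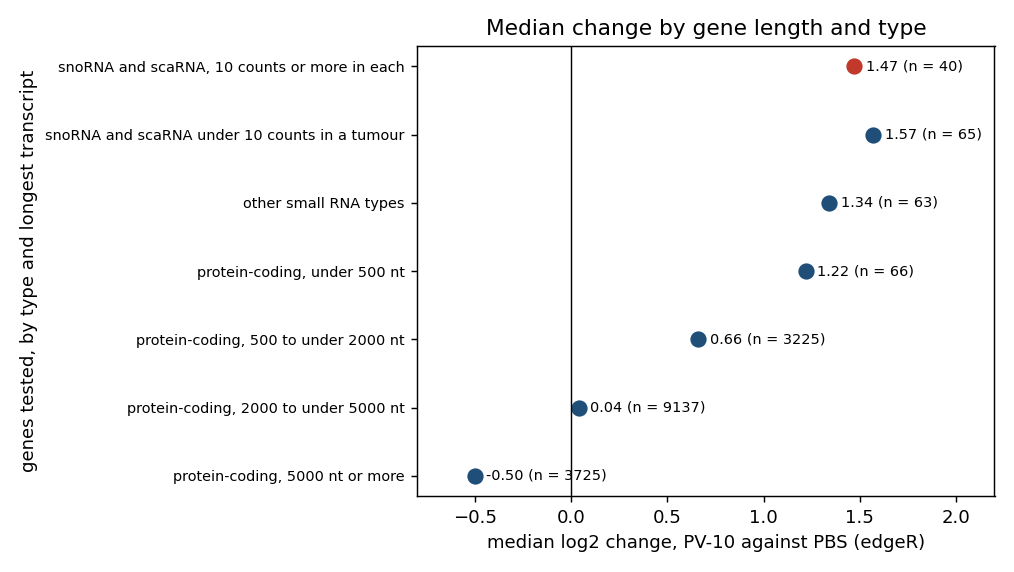
Median log2 change between PV-10 and PBS (horizontal axis) for tested genes grouped by type and longest annotated transcript, with the number of genes in each group. The median moves from -0.50 for the longest protein-coding genes to 1.22 for the shortest, and stands at 1.47 for the 40 small RNA genes described here.

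Scaled for length, the calls were lost. On the deposited TPM (RSEM's abundance, which divides counts by the length available to fragments), with limma on log2(TPM + 1), 26 members had a positive and 13 a negative change, against 37.1% of all genes with a positive one. Over the 35 members above TPM 0 in every tumour, 22 changes were positive and 13 negative. The median over the 40 was 0.41 against -0.21 over all genes. Among tested snoRNA and scaRNA genes that are no members it was 0.55. For the 340 non-members within the members' length range it was 0.14, and for protein-coding genes under 500 nt 0.2. Of the members only Gm22357, Gm23008, Gm25395 and Snord32a passed, none of them among the 15 called on counts. Over all genes, 1.14% passed higher in PV-10. Gm22357, Gm23008 and Snord32a are 80 to 83 nt long and are listed at TPM 0 in every PBS tumour despite 94 or more, 24 or more and 316 or more counts per tumour in all 6. Snord104, of 70 nt, is listed at TPM 0 in all 6 tumours. Gm25395 is the exception, with TPM of 1.07, 4.99 and 4.29 with PBS and 11, 12.6 and 8.91 with PV-10, without overlap (9.58% of all genes lay above in this way on TPM).

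On TPM the groups overlapped for Gm26397, Gm24727 and Scarna2, but not for Gm22988. Gm22988 had 1560, 2931 and 2845 TPM with PBS and 5823, 4314 and 3073 TPM with PV-10. Its log2 change on TPM was 0.86 (limma adjusted p = 0.0883), and 9.58% of all genes lay above PBS in this way. Gm26397 had 9163, 13803 and 8889 TPM with PBS and 11559, 16236 and 10449 TPM with PV-10, a log2 change of 0.27. Scarna2 had 106, 271 and 176 TPM with PBS and 235, 273 and 260 TPM with PV-10, a log2 change of 0.57. Gm24727, by contrast, had 2059, 2353 and 2902 TPM with PBS and 7141 and 6982 TPM in PV-10 tumours 1 and 2, with PV-10 tumour 3 at 2064. Summed over the members, TPM made up 2.56%, 3.02% and 3.23% of the total with PBS and 3.56%, 4.56% and 6.30% with PV-10. Without the 5 members listed at TPM 0 in at least 1 tumour (Gm22357, Gm23008, Snord104, Snord21 and Snord32a), the shares were 1.95%, 3.02% and 2.22% with PBS and 3.08%, 3.57% and 2.44% with PV-10, and the groups overlapped.

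The ratio of counts to TPM gives the length each library counted as available. Fitted over 552 to 940 genes per library, it corresponds to a mean fragment length of 186.7, 188.6 and 176.0 nt in PBS tumours 1 to 3 and 169.2, 166.2 and 166.3 nt in PV-10 tumours 1 to 3. The means were 183.8 ± 6.8 and 167.2 ± 1.7 nt (SD, n = 3), and the groups did not overlap (exact two-sided permutation test, p = 0.1, the smallest that 3 against 3 allows). For the 144-nt Gm22988 the available length was 12.3, 9.17 and 14.2 nt with PBS and 17.1, 17.3 and 20.0 nt with PV-10. For the 414-nt Scarna2 it was 225 to 240 nt and 248 to 249 nt. Implied fragments were thus shorter in each PV-10 tumour than in any PBS tumour, and, beyond the length-scaled values given here, their part in the members' changes was not tested. When each library's dependence of counts on transcript length was taken out as an offset, 25 members had a positive and 15 a negative change (42.2% of all genes positive), with a median of 0.47 against -0.26 over all genes. In that edgeR fit 0 members and 0 genes in all (0.0%) passed, with an unadjusted p under 0.05 for 7 members and 5347 genes. Its median was 0.3 for tested snoRNA and scaRNA genes that are no members. It was 0.15 for non-members within the members' length range (187 positive and 153 negative) and 0.21 for protein-coding genes under 500 nt. Differences between the members and these groups were not tested.

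The members with the largest changes on counts were also positive on the length-scaled measures. Gm25395, Gm26083, Gm24727, Snora73b and Gm22988 had the largest changes on counts and had, with the length trend removed, 1.81, 1.61, 1.46, 1.29 and 1.21. They were picked by changes in the same counts, so their positive sign after length scaling is a description and no separate support. All 3 Snora and all 3 Scarna genes stayed positive on both length-scaled measures, with Snora medians of 0.72 on TPM and 1.12 with the trend removed, and Scarna medians of 0.52 and 0.53. The Snord median was 0.22 on TPM and -0.09 with the trend removed. The TPM median includes Snord21, Snord32a and Snord104, which are listed at TPM 0 in PBS tumour 2, in all PBS tumours and in all 6 tumours, and over the other 4 Snord genes it was -0.05. In all, 22 members were positive and 11 negative on both. The lowest of the latter on TPM were Gm23442 (-1.06), Gm26447 (-0.94), Gm26003 (-0.80) and Gm23119 (-0.77).

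**Figure D5:**
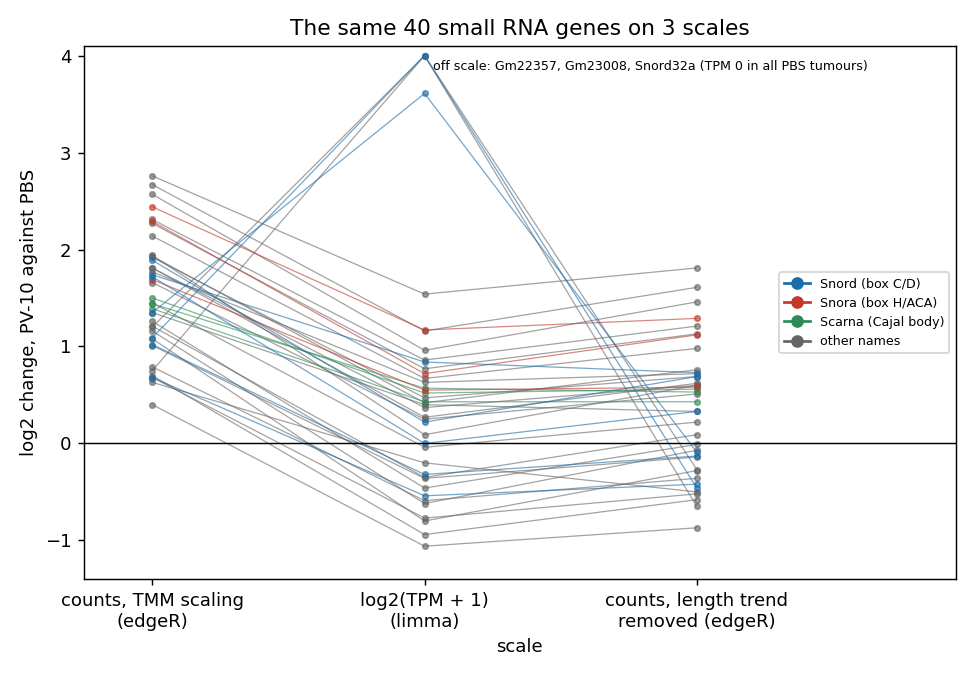
Log2 change between PV-10 and PBS (vertical axis) of the same 40 small RNA genes on TMM-scaled counts, on log2(TPM + 1) and on counts with each library's length trend removed, 1 line per gene. All 40 are above 0 on counts, 26 on TPM (Snord104, at TPM 0 throughout, is drawn at 0) and 25 with the length trend removed, and the 3 genes past the top of the axis are those listed at TPM 0 in all PBS tumours.

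Genes for the proteins that bind or assemble these RNAs were tested in 3 lists, and 2 of 26 passed (7.69%, against 5.09% of all genes). Of the 4 box C/D core proteins (Fbl, Nop56, Nop58 and Snu13) 0 passed in edgeR, with an unadjusted p under 0.05 for 2, and the median log2 change was 0.20. Fbl, the methyltransferase fibrillarin, had 52.3, 42.1 and 55.1 CPM with PBS and 28.5, 12.6 and 49.97 CPM with PV-10. Of the 4 box H/ACA core proteins 1 rose: Nop10, with 19.2, 10.1 and 15.8 CPM against 84.7, 60.0 and 28.8 CPM (1.95, adjusted p = 0.0443). Dkc1, the pseudouridine synthase dyskerin, had a log2 change of -0.02. Among 18 measured genes of 19 listed for assembly of these particles and for Cajal bodies, 1 rose (Znhit3, an assembly factor, 2.67), 0 fell and the median was -0.14. Coil, the Cajal body scaffold coilin, had 5.23 ± 1.37 CPM with PBS and 7.87 ± 0.547 CPM with PV-10 (SD, n = 3 each, edgeR adjusted p = 0.232).

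Of 26 genes for ribosomal RNA transcription and early processing, 3 rose (Taf1d 2.34, Emg1 1.67 and Polr1d 1.61) and 2 fell (Polr1a -1.70 and Ncl -1.54). The share that rose was 11.5%, against 3.17% of all genes, and 1.92% of all genes fell. Polr1a is the largest subunit of RNA polymerase I and Ncl is nucleolin. Taf1d is itself the host of Gm25791, which ends in the ACA signature and had 1.93 ± 0.52 (edgeR adjusted p = 0.0572). Of 15 measured noncoding hosts of 18 listed, 7 rose (46.7%, against 3.17% of all genes) and 0 fell, with a median of 1.64. Those that rose were Snhg1, Snhg3, Snhg8, Snhg10, Snhg12, Snhg15 and Snhg18. Snhg12 had 12.1, 13.7 and 9.43 CPM with PBS and 23.1, 32.1 and 29.9 CPM with PV-10. Gas5, the host of Gm22357, had 92.6 ± 10.1 and 157 ± 29.0 CPM and did not pass (log2 change 0.76, adjusted p = 0.0893).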

How the data were processed

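Total RNA of 6 tumours (3 PBS, 3 PV-10) was sequenced in 100-base read pairs. Adapters were found by BBMerge 37.02 and cut by cutadapt 1.8.1, STAR 2.7.7a mapped the reads (mm10), and RSEM 1.3.0 produced the gene table under Gencode vM21, per the labels' protocols. The deposited counts are whole numbers per gene, not normalized. The deposited TPM values are RSEM's abundances divided by the length available to fragments, with the same sum in each tumour. Columns were matched to tumours by the library name in the labels. Whether the counting used the strand is not given in the sources used here.

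Counts were tested with edgeR 4.0.16 (R 4.3.3): expression filter at its defaults (22056 genes, all 40 members among them), TMM scaling, robust quasi-likelihood fit, F test and Benjamini-Hochberg adjustment over all genes tested, with passing at an adjusted p under 0.05. The biological coefficient of variation was 0.777. Log2 changes with SE come from this fit, the SE being the change over the root of F, and many genes share the lowest adjusted p of 0.0443. CPM are TMM-scaled and given per tumour or as mean ± SD (n = 3). TPM were tested as log2(TPM + 1) with limma 3.58.1. DESeq2 1.42.0 (the authors' tool, per the labels), limma-voom, other scalings and filters, a replicate block, a length offset (natural spline, 5 degrees of freedom) and omission of each tumour were alternatives. Depth ran from 36730318 to 98717951 counts per tumour, so that 3 counts equal 0.0304 to 0.0817 CPM.

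Positions, hosts and sequences are from the Gencode release M21 annotation and transcripts, and identities from pairwise alignment with Biopython 1.88. For the mean fragment length, a Theil-Sen line of count over TPM on transcript length was fitted in each library. It used genes with 1 transcript within limits of length and count, and the value is minus the intercept over the slope. Members, lists and the naming rule were chosen with earlier results of these data known. The rule named, for each of Snord, Snora and Scarna, the 5 members with the most CPM, up to 5 largest rises and falls among those passing, a fixed list, hosts and core protein genes. Its extension to the other names and the choice of single genes there followed sight of their values.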

Additional observations from a re-analysis of the deposited data

How the results depend on the processing

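The count of 15 members passing became 22 with DESeq2, 19 with DESeq2 size factors, 16 with library size alone, 20 without a filter, 20 with a mean of at least 50 counts and 16 with limma-voom. In each of those 6 settings all 40 changes were positive, and the same 15 remained, except Gm26083 with limma-voom. The median over all genes moved from 0.30 to 1.84 with DESeq2, to 1.63 without a filter, to 0.43 with DESeq2 size factors and to 0.06 with a mean of at least 50 counts, with member medians of 1.59, 1.36, 1.60 and 1.65. Against the all-gene median, members were therefore lower and not higher with DESeq2 and without a filter, where many genes of low count enter. On TPM the count was 4 with either pseudocount (1 or 0.1), with the length trend removed 0, and leaving out 1 tumour it ran from 0 to 20. Requiring 50 counts in each tumour, or a mean of 10, gave 15.

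Over all genes, 1122 passing (699 higher, 423 lower) became 7945 with DESeq2 (5675 and 2270), 2537 with its size factors (1469 and 1068), 2441 with library size alone (980 and 1461), 4664 without a filter (2037 and 2627), 2705 with a mean of 50 (1593 and 1112), 2097 with limma-voom (866 and 1231), 4037 and 3998 on TPM (251 and 3786, and 418 and 3580), 0 with the length trend removed and 1 to 11399 leaving out 1 tumour. The cause was not tested beyond these settings.

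The Snord median of 1.35 was 0.22 on TPM with both pseudocounts, -0.05 on TPM over the 4 above TPM 0 in every tumour, -0.09 with the length trend removed and 1.01 to 1.64 leaving out 1 tumour. The Snora median of 2.29 was 0.72 and 0.73 on TPM, 1.12 with the length trend removed, 1.8 with a mean of 10 counts and 1.73 to 2.46 leaving out 1 tumour. The Scarna median of 1.44 was 0.52 and 0.53 on TPM and 0.53 with the length trend removed. The host median of 0.36 was 0.46 with DESeq2, 0.47 with its size factors, 0.26 with library size, 0.5 with Snhg3 in place of Rcc1, -0.35 and -0.37 on TPM, -0.28 with the length trend removed and 0.27 to 0.44 leaving out 1 tumour. The settings with Snhg3 and with members above TPM 0 were chosen after seeing the data.

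Changes turned negative for 13 members on TPM (at pseudocounts 1 and 0.1 equal where 1 value is given): Gm23442 -1.06, Gm26447 -0.94, Gm26003 -0.80 and -0.81, Gm23119 -0.77, Gm25788 -0.62, Gm22442 -0.59, Snord15b -0.54, Gm26205 -0.46 and -0.47, Gm25835 -0.36, Gm26079 -0.35, Snord15a -0.32, Rnu3a -0.20 and Gm25394 -0.04. They did so for 15 with the length trend removed: Gm23442 -0.87, Gm22357 -0.65, Gm26447 -0.58, Gm23119 -0.52, Rnu3a -0.50, Snord32a -0.46, Snord15b -0.42, Gm22442 -0.36, Gm26003 -0.28, Gm23008 -0.27, Gm25835 -0.14, Snord15a -0.13, Snord21 -0.09, Gm25788 -0.07 and Gm26205 -0.01. Leaving out 1 tumour, Snord32a ran from -0.07 (without PV-10 tumour 3) to 1.57 and Snord21 from 0.09 (likewise) to 1.8.

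The titles number tumours 1 to 3 in both groups. Deviations of same-numbered tumours from their group means correlated at -0.049, 0.071 and 0.072, and 1 of 3 PBS tumours correlated best with its own number. With 3 tumours per group these correlations cannot decide whether same-numbered tumours share more than a number, and this was not tested. With the replicate block 17 members passed (all 15 and Gm22009 and Snord17), 2872 genes in all (1054 higher and 1818 lower), with medians of 1.05 for Snord, 2.18 for Snora, 1.46 for Scarna and 0.36 for hosts.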
